A study of Homo sapiens with 6 samples.

Results

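The enzymes and binding proteins that write, read and erase repressive chromatin were followed in A-498 cells after zebularine. The list named 33 genes, and a probe set was counted for a gene when the array annotation gave it exactly 1 symbol and that symbol was on the list. This found 59 of the 22277 probe sets, for 32 genes; TET2 had none by this rule. Of these, 46 probe sets for 30 genes were bright enough to test, against 13545 probe sets for 7938 genes in the whole series. A-498 is an established human renal cell carcinoma line, and zebularine is a cytidine analogue that inhibits DNA methyltransferases. There were 2 groups, untreated cultures at 0 µM and cultures at 1000 µM zebularine, both harvested at 120 h, with 3 arrays in each. Every culture was the same line grown as a monolayer in serum-containing medium and split during the treatment, so the replicates speak for 1 line only. The untreated and the treated array of 1 replicate number share a code in their labels, and each such pair is called an experiment (1, 2 or 3) here.

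DNA methylation silences genes together with histone marks. Methyl-binding proteins read methylated DNA and recruit histone deacetylases, while enzymes that methylate histone H3 on the residue known as H3K9 create the site to which HP1 proteins bind. Polycomb repressive complex 2 places a separate repressive mark, H3K27 methylation, and demethylases of the KDM family take methyl groups off histones. Inhibitors of DNA methyltransferases act beside these systems without targeting them directly.

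Array medians ran from 117.9 to 140.8 signal units, and the array maxima in experiment 3 were 31176 and 28721 against 66290 to 71174 elsewhere. The ratio of 3' to 5' signal for GAPDH, a sign of RNA integrity, was 1.07 to 1.52 on untreated and 1.01 to 1.34 on treated arrays. The same ratio for ACTB was 1.71 to 3.10 on untreated and 1.49 to 5.25 on treated arrays, highest on the treated array of experiment 1. Of 10 measured kidney epithelium and renal carcinoma markers, 8 had a median signal at or above 78.6 (the detection level required of tested probe sets), with CDH16 and EPCAM below it. Detection did not mean an unchanged level, as in CDH6 and KRT19, which were chosen after their values were seen. CDH6 had means of 1400 in untreated and 162 in treated cultures (log2 difference -2.85; limma, adjusted p = 0.0206, and 0.00397 with the experiment as a block). KRT19 differed by 1.49 without a call (limma, adjusted p = 0.251, and 0.0591 with the block). Of 11 measured markers of leukocytes, endothelium and fibroblasts, only COL1A1 reached that level, and their summed signal was 487 to 730.1 on untreated and 739 to 977 on treated arrays. Of 12 proliferation markers, 0 were called by limma without and 3 with the experiment as a block (MKI67, CDK1 and PCNA, all higher), 7 and 8 had an unadjusted p under 0.05 (background 0.642% and 4.45% called, 13.1% and 21.3% at unadjusted p), and their median log2 difference was 0.70. The difference was positive for 10 of the 12 markers and negative for 2 (background 49.3% positive). These 2 were MCM2 at -0.33, lower in all 3 experiments, and MCM6 at -0.29. The part of these shifts in the values of the chromatin genes was not tested. Bulk RNA cannot tell apart fewer cells with a transcript and less transcript per cell.

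The chromatin genes showed no shared direction after zebularine, and 1 of them, the deacetylase gene HDAC9, rose in the comparison within experiments. Differences are given as zebularine minus untreated on the scale log2(signal + 16.34), which understates changes of dim genes. A call needed an adjusted p under 0.05 in limma (Benjamini-Hochberg, computed across the 13545 probe sets that were tested), and each gene was represented by its brightest tested probe set. Without a block, 0 of 30 genes were called (background 0.642% of tested genes), and 7 had an unadjusted p under 0.05 (23.3%, background 13.1%), 2 of them higher (background 6.25%) and 5 lower (background 6.84%) after zebularine. With the experiment as a block, 1 of 30 was called, in the higher direction (background 4.45%, and 2.17% for higher calls alone), and 7 had an unadjusted p under 0.05 (23.3%, background 21.3%). Counted by probe set, 0 of 46 (background 0.62%) and 1 of 46 (background 4.22%) were called in these fits. A positive difference was found for 15 genes and a negative one for 15 (background 49.3% positive), and the median of -0.01 equalled that of all tested genes to this precision. The median absolute difference was 0.29 against 0.31 over all tested genes. All 3 experiments had 1 sign for 13 of the 30 genes (43.3%, background 43.5%). Treated and untreated arrays did not overlap for 9 genes (30%, background 18.2%), 4 of them higher (background 9.32%) and 5 lower (background 8.83%) after treatment. The 95% limma intervals are from the fit without the block. They lay within 1 log2 unit of 0 on both sides for 18 of the 30 genes (60%, against 46.9% of all tested genes). This bounds those changes to under 2-fold on this scale.

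**Figure D1:**
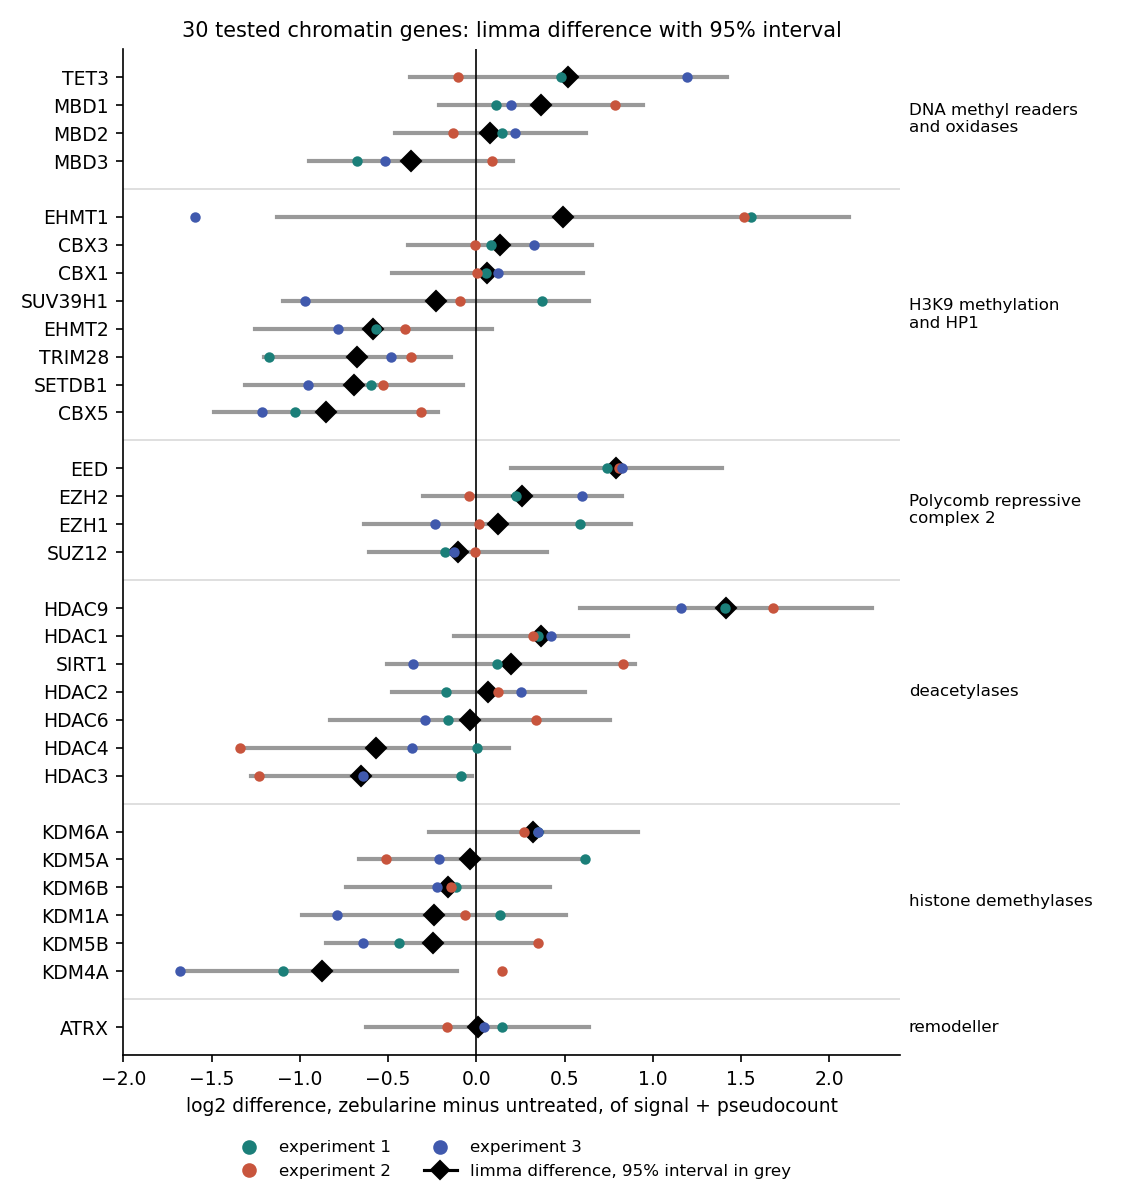
Log2 difference (zebularine minus untreated, horizontal axis) of the brightest probe set of each of the 30 tested genes, grouped by class. Diamonds are the limma differences over 6 arrays and grey bars their 95% intervals from the fit without a block. Coloured points are the differences within experiments 1, 2 and 3. HDAC9 stands farthest to the right at 1.41 and KDM4A farthest to the left at -0.88. Both signs occur in each class that holds more than 1 gene.

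Histone deacetylases remove acetyl groups from histones and close chromatin. HDAC9, a class IIa deacetylase that works with transcription factors such as those of the MEF2 family, read 132.4, 108.8 and 297.3 signal units in untreated cultures of experiments 1, 2 and 3 and 377.8, 384 and 684.4 in treated ones. Every treated array lay above every untreated one, and both arrays of experiment 3 were the highest of their group. The means were 179.5 ± 103 and 482 ± 175 (SD, n = 3). HDAC9 rose by 1.41 ± 0.26, or 2.67-fold on this scale, in the limma fit with the experiment as a block (adjusted p = 0.012), and the differences within experiments were 1.41, 1.68 and 1.16. Without the block the standard error was 0.38 and the gene was not called (limma, adjusted p = 0.139). In the blocked fit the call held without experiment 2 (limma, adjusted p = 0.0141) or experiment 3 (limma, adjusted p = 0.0178) and was lost without experiment 1 (limma, adjusted p = 0.0602). Of the 7938 tested genes, 73 including HDAC9 had a log2 difference at least as large. In the blocked limma fit 86 had a p at most that of HDAC9.

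The other deacetylases did not pass the test in either fit. HDAC3, the catalytic subunit of the nuclear receptor corepressor complex, read 567.7, 738.1 and 811.7 in untreated and 533.7, 305.3 and 514.2 in treated cultures. Its groups did not overlap, yet experiment 1 differed little, with differences of -0.09, -1.23 and -0.64 (limma, adjusted p = 0.379). HDAC4, a class IIa relative of HDAC9, read 317.3, 348 and 396.6 in untreated and 318.3, 127.7 and 304.2 in treated cultures. Only the treated array of experiment 2 stood well below the rest, and the difference of -0.57 ± 0.35 was not called (limma, adjusted p = 0.541). HDAC5, also of class IIa, was too dim to test and is given for completeness outside the naming rule, with 101.2, 35.1 and 30.8 in untreated and 36.1, 37.2 and 30.7 in treated cultures. HDAC1, a class I enzyme of several corepressor complexes, was higher in every treated array than in any untreated one, at 2295 ± 143 and 2963 ± 276 (SD, n = 3), a difference of 0.36 ± 0.23 (limma, adjusted p = 0.549). HDAC2, its close relative, differed by 0.07, HDAC6, which deacetylates tubulin in the cytoplasm, by -0.04, and SIRT1, a deacetylase that depends on NAD, by 0.20, each with overlapping groups. The interval of HDAC2 ran from -0.48 to 0.62.

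**Figure D2:**
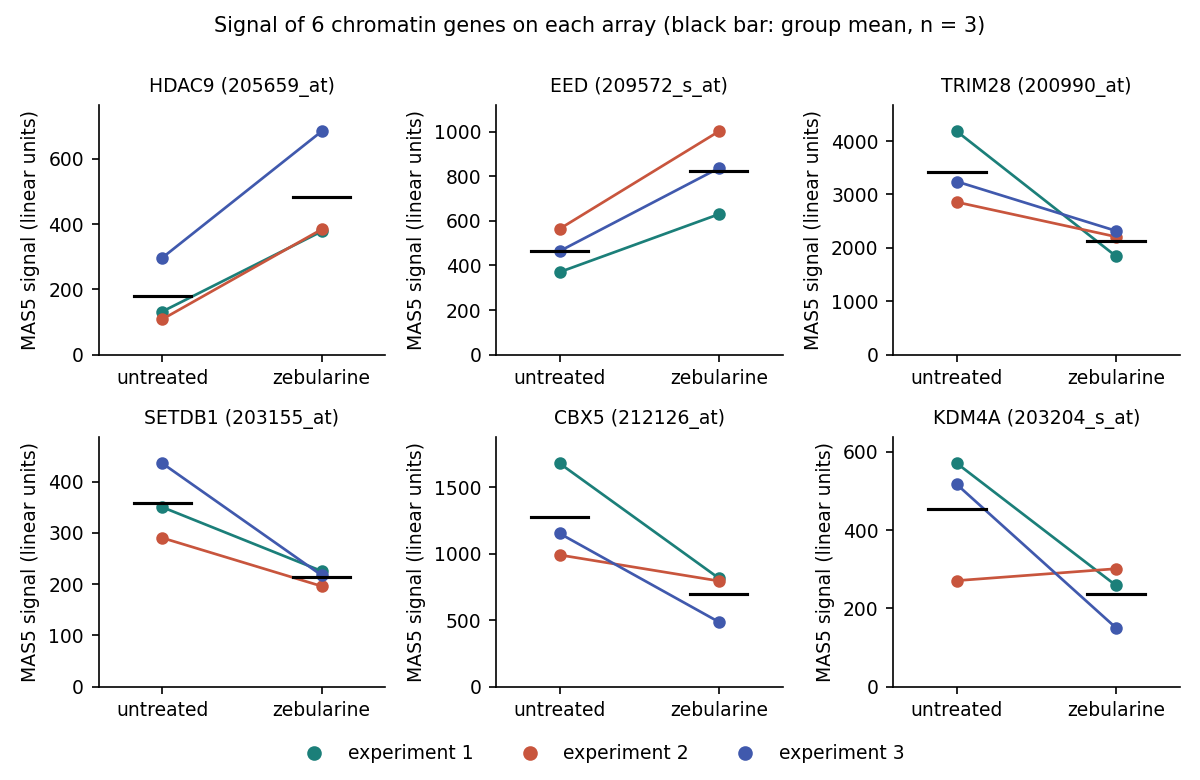
Signal (linear MAS5 units, axes starting at 0) of 6 chromatin genes on each array, with a line joining the untreated and the treated array of 1 experiment and black bars for the group means (n = 3). HDAC9 and EED are higher and TRIM28, SETDB1 and CBX5 lower on all 3 treated arrays, whereas KDM4A goes from 271 to 301.4 in experiment 2.

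HDAC9 is shown by sequence because it was the 1 gene called in the blocked fit. EED and CBX5 are shown because they had the smallest blocked p-values after it, 1 higher and 1 lower. Each run is the 250 bases upstream of a RefSeq start site (GRCh38.p14), 5′ to 3′ on the gene's strand, with capitals marking the CpG sites at which DNA is methylated. RefSeq lists 5 starts for HDAC9 on the plus strand of chromosome 7, and the richest and the poorest in CpG are given. The first is chr7:18086575-18086824 with 32 CpG sites, a density reached by 9.52% of all 35116 listed starts, and the second is chr7:18509020-18509269 with 0, as in 6.06% of starts. The other 3 starts of HDAC9 hold 4 each. EED has 1 start, chr11:86244503-86244752 on the plus strand, with 11 CpG sites, and 50.3% of starts have at least as many. CBX5 has 3, and its richest, chr12:54280123-54280372 on the minus strand, holds 17, a number reached by 39.0% of starts.
HDAC9, CpG-rich start: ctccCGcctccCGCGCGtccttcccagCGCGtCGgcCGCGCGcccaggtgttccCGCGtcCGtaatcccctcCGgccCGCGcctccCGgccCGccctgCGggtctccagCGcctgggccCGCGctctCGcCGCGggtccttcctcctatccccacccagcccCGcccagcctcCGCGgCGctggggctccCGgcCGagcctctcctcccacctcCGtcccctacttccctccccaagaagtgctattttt
HDAC9, CpG-poor start: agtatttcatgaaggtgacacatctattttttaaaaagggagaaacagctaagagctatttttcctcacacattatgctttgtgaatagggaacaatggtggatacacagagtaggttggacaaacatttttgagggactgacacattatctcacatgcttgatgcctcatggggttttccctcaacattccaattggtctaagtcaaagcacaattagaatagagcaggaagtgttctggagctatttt
EED: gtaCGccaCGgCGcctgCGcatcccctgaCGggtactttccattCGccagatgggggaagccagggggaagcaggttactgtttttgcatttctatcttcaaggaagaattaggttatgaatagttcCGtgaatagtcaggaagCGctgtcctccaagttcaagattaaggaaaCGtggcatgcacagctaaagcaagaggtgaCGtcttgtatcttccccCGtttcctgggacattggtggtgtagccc
CBX5: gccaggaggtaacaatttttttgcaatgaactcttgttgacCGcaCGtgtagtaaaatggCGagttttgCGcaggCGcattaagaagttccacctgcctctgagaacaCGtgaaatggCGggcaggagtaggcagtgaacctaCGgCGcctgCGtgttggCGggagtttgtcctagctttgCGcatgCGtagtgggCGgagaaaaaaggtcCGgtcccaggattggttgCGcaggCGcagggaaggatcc
Which start of HDAC9 the probe set reads is not given in the sources used here, and no DNA methylation was measured. Promoter entries were matched by symbol for 30 of the 33 genes, all but TRIM28, ATRX and HDAC5. At their richest start these 30, which include TET2 and ZBTB33 that were not tested, held 11 to 43 CpG sites with a median of 25. The median was 23 over the 6593 tested genes with an entry. HDAC9, at 32 at its richest start, lay between EED at 11 and EHMT1 at 43, tested genes not called in either fit.

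In the H3K9 methylation pathway the log2 differences were -0.67 for the corepressor TRIM28, -0.69 for its partner methyltransferase SETDB1 and -0.85 for the HP1 alpha gene CBX5, against 0.06 and 0.13 for the other HP1 genes at their brightest probe sets. None of the 8 tested genes was called in either fit, 3 had an unadjusted p under 0.05, all lower (background 6.84% of tested genes), and in 4 the treated arrays all lay below the untreated ones (background 8.83%). The median difference was -0.41, with -0.26, -0.20 and -0.87 in experiments 1, 2 and 3.

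TRIM28, the scaffold through which KRAB zinc finger proteins bring silencing factors to DNA, read 4180.1, 2855.9 and 3241.5 in untreated and 1843.3, 2208.3 and 2318.1 in treated cultures. All treated arrays were below all untreated ones, and the widest gap within a pair was in experiment 1, whose untreated array was the highest. The difference was -0.67 ± 0.25 (limma, adjusted p = 0.276, and 0.0846 with the block). SETDB1, which methylates H3K9 where TRIM28 is bound, read 350, 290.1 and 435.5 in untreated and 225.5, 196 and 217.3 in treated cultures. Again the groups did not overlap, and the treated arrays lay close together. Its difference was -0.69 ± 0.28 (limma, adjusted p = 0.34), but a second, dimmer probe set of SETDB1 stood at 0.08 ± 0.34. EHMT2, also called G9a, which places H3K9 methylation in euchromatin, had means of 276 ± 46.8 and 179.9 ± 39.8 (SD, n = 3) with no overlap and a difference of -0.58 (limma, adjusted p = 0.47).

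CBX5 encodes HP1 alpha, which binds methylated H3K9 and compacts chromatin. It read 1677.8, 989.5 and 1151.1 in untreated and 815.2, 794.3 and 486.4 in treated cultures. The groups did not overlap, and the gap was narrowest in experiment 2. The differences within experiments were -1.03, -0.31 and -1.22, and the limma difference was -0.85 ± 0.29 (adjusted p = 0.256, and 0.0657 with the block). Its second probe set, at 320 ± 79.5 and 309 ± 101 (SD, n = 3), differed by -0.06 ± 0.32. The paralogues CBX1 (HP1 beta) and CBX3 (HP1 gamma) differed by 0.06 and 0.13 at their brightest probe sets, with intervals from -0.48 to 0.60 and from -0.39 to 0.66. A second CBX3 probe set stood at 0.56 ± 0.31 and was higher in all 3 experiments (limma, adjusted p = 0.498, and 0.101 with the block). SUV39H1, which methylates H3K9 in pericentric heterochromatin, had differences of 0.37, -0.09 and -0.97. EHMT1, the partner of EHMT2, was near background, with differences of 1.56, 1.52 and -1.59 and an interval from -1.13 to 2.11.

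In Polycomb repressive complex 2 the log2 difference was 0.79 for the core subunit gene EED and between -0.10 and 0.26 for its partners. EED binds the H3K27 methyl mark and stimulates the enzyme. It read 370.4, 564.2 and 464.3 in untreated and 629.8, 1001.2 and 836.4 in treated cultures, with no overlap. The differences within the experiments were nearly equal, at 0.74, 0.81 and 0.83, and the limma difference was 0.79 ± 0.28 (adjusted p = 0.26, and 0.0645 with the block). EZH2, the catalytic subunit in dividing cells, read 460.9, 476 and 467.9 in untreated and 540.9, 462.7 and 717.3 in treated cultures. Only experiment 3 showed a clear excess, and the difference was 0.26 ± 0.26 (limma, adjusted p = 0.726). EZH1, the alternative catalytic subunit, read 186.4, 146.8 and 257 in untreated and 288, 148.7 and 215.6 in treated cultures, with no common direction (0.12 ± 0.35; limma, adjusted p = 0.915). SUZ12, the third core subunit, differed by -0.10, with an interval from -0.61 to 0.40. Of these 4 genes, 0 were called in either fit and EED alone had an unadjusted p under 0.05 (25%, background 13.1%, and 21.3% with the block).

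Histone demethylases showed a low value for KDM4A in experiments 1 and 3 only. KDM4A removes methyl groups from H3K9 and H3K36. Its brightest probe set read 570.7, 271 and 516.7 in untreated and 258.6, 301.4 and 150.2 in treated cultures. The untreated array of experiment 2 was already at the level of the treated ones, so the groups overlapped. Differences within experiments were -1.09, 0.15 and -1.68, and the limma difference was -0.88 ± 0.35 (adjusted p = 0.325). A second KDM4A probe set followed the same course, at -0.95, 0.03 and -1.28.

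The remaining demethylases were closer to 0. KDM6A, which removes the H3K27 mark that Polycomb places, read 319, 253.1 and 262.9 in untreated and 410.5, 308.3 and 339.2 in treated cultures. It was higher in each experiment, by 0.35, 0.27 and 0.35, though the groups overlapped (0.32 ± 0.27; limma, adjusted p = 0.671), and its 3 probe sets ranged from 0.23 to 0.34. KDM5B, an H3K4 demethylase, read 745.1, 442.9 and 820.3 in untreated and 545.6, 569.8 and 518.7 in treated cultures. Experiments 1 and 3 were lower and experiment 2 higher, which left a difference of -0.24 ± 0.28 (limma, adjusted p = 0.772). KDM1A, also called LSD1, differed by -0.24, its H3K4-specific neighbour KDM5A by -0.04, and KDM6B, the second H3K27 demethylase here, by -0.16. A KDM6B probe set too dim to test, chosen after its values were seen, read 210.6, 129.6 and 73.1 in untreated and 72.9, 58.2 and 65 in treated cultures. Of the 6 genes, 0 were called and KDM4A alone had an unadjusted p under 0.05 (16.7%, background 13.1%, and 21.3% with the block).

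Readers and oxidases of DNA methylation gave no call. TET3, which oxidises methylated cytosine, read 113.5, 104.7 and 72.7 in untreated and 164.4, 96.3 and 186.9 in treated cultures. Experiment 2 did not share the higher level of the others, and the difference was 0.52 ± 0.42 (limma, adjusted p = 0.645). MBD1, a methyl-CpG reader that works with SETDB1, read 401.3, 279.3 and 351.7 in untreated and 435.6, 494.2 and 405.9 in treated cultures. The groups did not overlap, with most of the difference of 0.37 ± 0.27 from experiment 2 (limma, adjusted p = 0.612), while a dimmer MBD1 probe set stood at -0.69 ± 0.60. MBD3, a subunit of the NuRD deacetylase complex, read 783.5, 512.8 and 594.2 in untreated and 484.1, 547.4 and 409.6 in treated cultures. Experiments 1 and 3 were lower and experiment 2 was not (-0.37 ± 0.27; limma, adjusted p = 0.611). Its 2 dimmer tested probe sets stood at -0.34 ± 0.46 and 0.37 ± 0.52. MBD2, the methyl-binding subunit of NuRD, differed by 0.08, with an interval from -0.46 to 0.62. ZBTB33, the methyl-binding zinc finger protein Kaiso, was too dim to test, at 17 to 103 in untreated and 24.4 to 120.1 in treated cultures.

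ATRX, a chromatin remodeller that deposits histone H3.3 in heterochromatin, read 574.5, 460.6 and 706.5 in untreated and 637.7, 408.5 and 729.1 in treated cultures. Each experiment kept its own level, and the difference was 0.01 ± 0.29 (limma, adjusted p = 0.996), with an interval from -0.62 to 0.64. Its other 2 tested probe sets stood at -0.05 and -0.03.

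Class medians of the log2 difference varied between experiments. Over all 7938 tested genes the 3 experiment medians lay between -0.02 and 0.00. A median over the 4 to 8 genes of a class scatters more than that, so the comparison cannot show unusual variation in the classes. Deacetylases had medians of 0.00, 0.32 and -0.29 in experiments 1, 2 and 3, demethylases 0.01, 0.04 and -0.43, and Polycomb genes 0.40, 0.00 and 0.24. Readers and oxidases had 0.13, -0.01 and 0.21. The H3K9 and HP1 genes had medians below 0 in every experiment, which was also so for related demethylases and deacetylase complex genes outside the list. No difference between classes was tested.

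**Figure D3:**
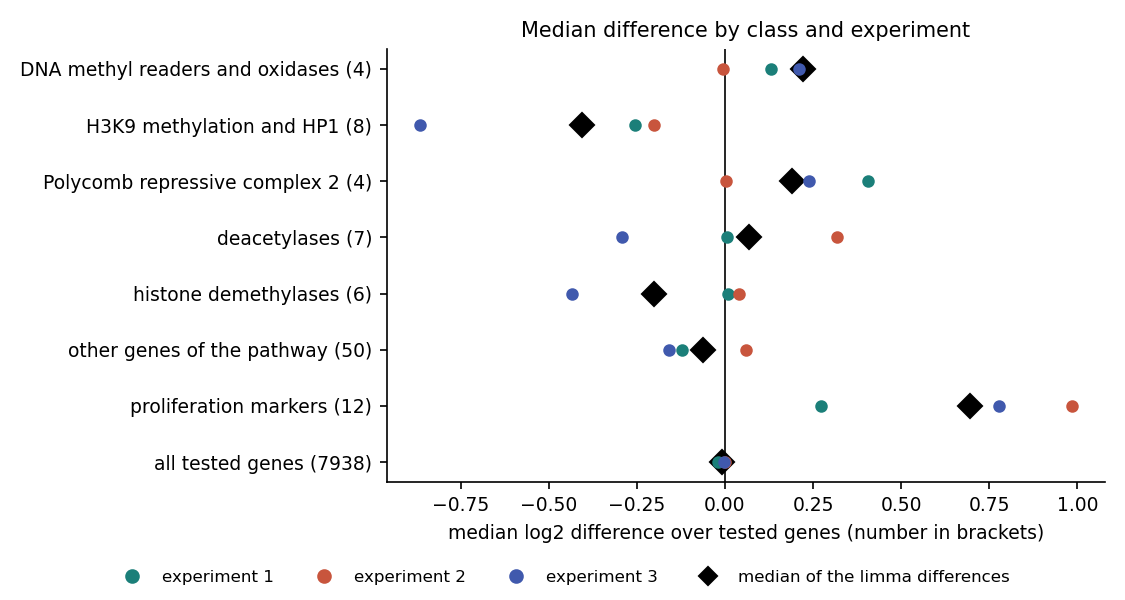
Median log2 difference (horizontal axis) over the tested genes of each class, with the number of genes in brackets; coloured points are the medians within experiments 1, 2 and 3 and diamonds the medians of the limma differences. The H3K9 and HP1 class sits at -0.41 with all 3 experiments below 0, the proliferation markers at 0.70 with all 3 above 0, and all tested genes at -0.01.

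Of the 30 tested genes 12 had more than 1 tested probe set, and in 6 of these the probe sets differed in sign, never by over 0.5 on both sides. The widest gap was in MBD1, followed by CBX5 and SETDB1, so the low values of CBX5 and SETDB1 rest on 1 of 2 probe sets each. KDM4A, KDM6A and KDM6B had tested probe sets of 1 sign each, with gaps of 0.14, 0.10 and 0.04. The KDM6B gap leaves out its probe set too dim to test, with differences of -1.35, -0.97 and -0.14 in experiments 1, 2 and 3. Of the 59 probe sets, 35 carry a name ending that marks a design shared between transcripts or of another special kind. The probe set of HDAC9 is not among them. HDAC9 had no second probe set, so its change rests on that probe set alone.

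**Figure D4:**
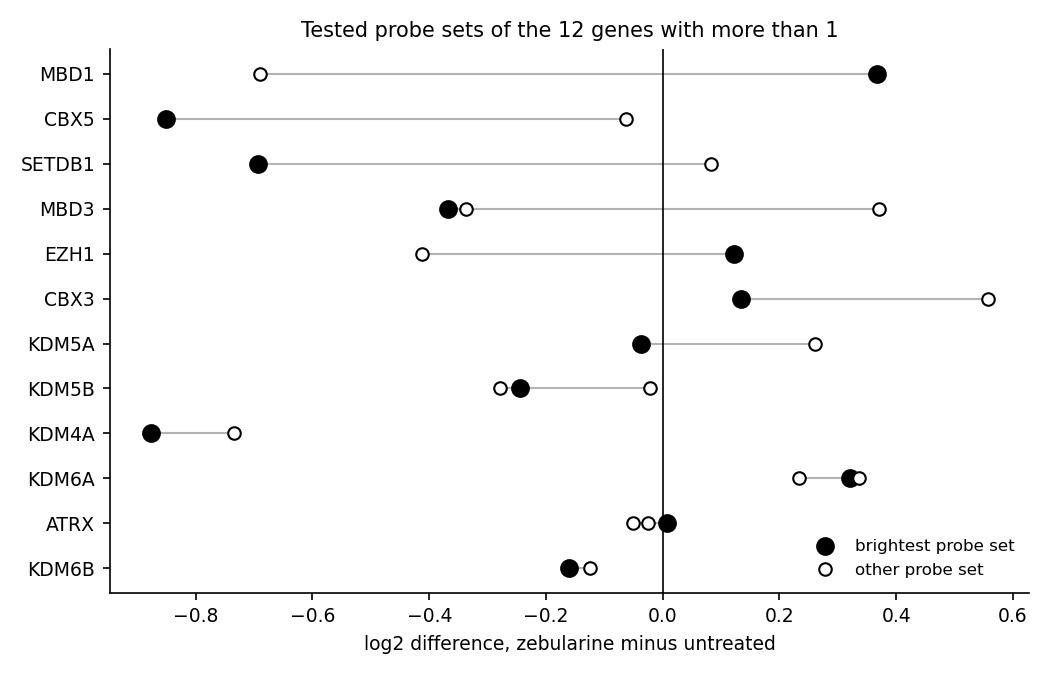
Log2 difference (horizontal axis) of every tested probe set of the 12 genes with more than 1, ordered by the gap between them; filled circles are the brightest probe set of a gene and open circles the others. MBD1 runs from -0.69 to 0.37, CBX5 from -0.85 to -0.06 and SETDB1 from -0.69 to 0.08, whereas both KDM4A probe sets lie at or below -0.73.

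Related genes outside the list gave no call either. Of 79 such genes, chosen as further readers, H3K9 and Polycomb factors, deacetylase complex subunits and demethylases, 50 were tested and 0 were called in limma without or with the block. At an unadjusted p under 0.05 there were 7 (1 higher, 6 lower; 14%, background 13.1%) and 10 (2 higher, 8 lower; 20%, background 21.3%). The median difference was -0.06, with different values by class. Related H3K9 genes had a median of 0.20, positive in 8 of 9 genes and at 0.34, 0.28 and 0.08 in experiments 1, 2 and 3, opposite in sign to the listed H3K9 and HP1 genes at -0.41. Related demethylases had a median of -0.34, negative in 9 of 10 genes (-0.32, -0.49 and -0.28 by experiment), and deacetylases with their complexes -0.27, negative in 9 of 13 (-0.39, -0.10 and -0.41). Treated and untreated arrays did not overlap for 9 of the 50 (18%, background 18.2%). Of these, 3 were higher (background 9.32%) and 6 lower (background 8.83%). The following genes were chosen after their values were seen. ZBTB38, another methyl-binding zinc finger gene, had means of 732 and 1378 and differences of 0.15, 1.03 and 2.01 (limma, adjusted p = 0.251). PHC1, of Polycomb repressive complex 1, had means of 179.7 and 62.7 and differences of -1.46, -1.63 and -1.03 (limma, adjusted p = 0.314). Its treated mean was below the detection level of 78.6. The paralogues went otherwise, with PHC2 at 0.01 and PHC3 at 1.15. PHC3 was higher in all 3 experiments with no overlap, from a dim untreated mean of 53.3 (limma, adjusted p = 0.436). The NuRD subunits CHD4 and MTA1 differed by -0.61 and -0.75 with no overlap between groups, and RBBP7, a histone-binding partner of EED and of NuRD, by 0.45 with no overlap. The SETDB1 partner ATF7IP differed by 0.44, and MPHOSPH8 and TASOR, subunits of the HUSH silencing complex that recruits SETDB1, by 0.15 and 0.16, all with overlapping groups.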

How the data were processed

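Total RNA of 6 cultures was labelled with biotin and hybridised to 1 Affymetrix array each. The deposited values are linear intensities, 1 per probe set and array, made by the authors with MAS5, per the submitters' processing notes; the sources used here give neither its version nor its settings. MAS5 signals of dim probe sets are known to be noisy. Groups and replicate numbers came from the sample titles.

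Values were taken as log2(signal + 16.34), the pseudocount being the median divided by 8, and testing required a signal of 78.6, the 40th percentile of non-control values, on at least 3 of the 6 arrays. Platform annotation gave 19070 probe sets 1 symbol, 1043 several and 2164 none; 19058 symbols matched RefSeq by Entrez number and 0 changed. The groups were tested two-sided in R 4.3.3 by limma 3.58.1, using lmFit, then eBayes with trend. The procedure was first run on simulated arrays. These were drawn independently of each other, so that run could not check the block on paired arrays. Python 3.11.15 and matplotlib 3.10.9 made the plots. The SDs describe the spread among cultures of 1 line. The errors, intervals and p-values of limma rest on a variance that eBayes draws towards that of probe sets of similar signal. They are therefore not the spread of 1 gene among these cultures alone. All refer to 1 line, with precision limited by the number of arrays.

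Same-numbered arrays share a code in the labels, and their deviations from the group means correlated at 0.323, 0.21 and 0.272 over 13545 probe sets, so the numbers pair the arrays and blocked values are given where they bear on a call. The genes and lists were chosen with earlier results of these data known. By rule the text gives array values for each gene called in either fit and the 3 of each class with the largest difference. It also names probe sets of opposite sign over 0.5 and related genes if called. The text says where such a gene was chosen otherwise. The rule did not cover the markers, of which CDH6, KRT19, MCM2 and MCM6 were named after their values were seen. Alternatives covered the pseudocount, filter, scaling, trend, block, probe set choice and each array or experiment left out.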

Additional observations from a re-analysis of the deposited data

How the results depend on the processing

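The count of called genes of the list was 0 in limma under every alternative without the block (2 to 7 genes at an unadjusted p under 0.05), and it was 1 with the experiment as a block, where the block pairs the arrays. In the blocked fit it was 0 to 4 genes, and 0 to 5 probe sets, with 1 experiment left out: 0 without experiment 1, 4 without experiment 2 (HDAC9, TRIM28, CBX5 and KDM4A) and 1 without experiment 3 (HDAC9). Over all probe sets the count of 84 became 572 with the block, 55 with a pseudocount of 4.08, 53 with none, 42 without the filter and 6 without the trend. It ran from 0 to 96 with 1 array left out, at 0 without zebularine 2 (1315 probe sets at an unadjusted p under 0.05), 14 without untreated 3, 15 without zebularine 3 and 16 without untreated 1, and with the block 194 without experiment 1, 1023 without experiment 2 and 335 without experiment 3. The median of the readers and oxidases, 0.22, was -0.017 over the means of a gene's probe sets and 0.10 to 0.28 with arrays or an experiment left out. With the filter on all 6 arrays, which drops TET3, it was 0.079. Over plain probe sets only, which cover TET3 and MBD3, it was 0.077. The medians of the other 4 classes moved by less than their spread between experiments, yet some by over 1.5 times. The H3K9 and HP1 median of -0.41 was -0.25 without untreated 3 and -0.23 with the block without experiment 3, and that of the demethylases, -0.20, was -0.047 and -0.0048. Averaging a gene's probe sets gave an H3K9 and HP1 median of -0.27, with SETDB1 at -0.30 and CBX5 at -0.46. Over fewer genes that median was -0.67 with plain probe sets and -0.58 with the filter on all 6 arrays. The Polycomb median of 0.19 ran from 0.099 to 0.38 with 1 array left out. Over plain probe sets, which cover EZH1 and SUZ12 but not EED or EZH2, it was 0.0086. The deacetylase median of 0.07 was -0.11 without untreated 2 and -0.12 with the block without experiment 2. Of the genes with array values in the text, HDAC9 ran from 1.14 to 1.81 and MBD1, EZH1 and ATRX changed sign. Averaging probe sets gave -0.16, -0.14 and -0.023 for these 3, median scaling gave -0.0072 for ATRX, the block gave ATRX -0.061 without experiment 1 and -0.010 without experiment 3, and with arrays or an experiment left out EZH1 ran from -0.091 to 0.35 (single arrays) and was -0.11 with the block without experiment 1, and ATRX from -0.16 to 0.25. The cause was not tested. Dim signals limit what can be said of HDAC5, ZBTB33, EHMT1 and TET3.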

Other observations

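Several genes, chosen after their values were seen, followed experiments 1 and 3 and not experiment 2. Mixed signs were no more common in the list than elsewhere. The 3 experiments had 1 sign for 43.3% of the 30 tested genes and for 43.5% of all tested genes. KDM4A, MBD3 and KDM5B were lower after zebularine in experiments 1 and 3 and at 0.15, 0.09 and 0.35 in experiment 2, while TET3 was higher in those experiments and at -0.10 in experiment 2. HDAC3 and HDAC4 had their lowest value in experiment 2, at -1.23 and -1.34. The proliferation markers differed between experiments too, with medians of 0.27, 0.99 and 0.78 in experiments 1, 2 and 3. No test of a difference between experiments was possible, since each holds 1 array of a group.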
